A study of Mus musculus with 9 samples.

Results

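The 44 autosomal genes named after cytoplasmic translation initiation factors were followed in growing mouse oocytes of XX, XO and XY females. They were taken by name, as the rows on chromosomes 1 to 19 called Eif1, Eif2b, Eif2s, Eif3, Eif4, Eif5 or Eif6 with their subunit letters, without Eif4enif1, Eif4e1b and pseudogenes, out of 28051 genes in the expression matrix. The rule itself uses names and positions and no expression value, so it also takes in some genes with other roles, such as Eif4a3 and Eif5a, described below. Of the 44 genes, 39 had enough UMIs to be tested, and the 5 that were too low were Eif2b2, Eif2b4, Eif3g, Eif4ebp1 and Eif4ebp3. Each genotype had 3 samples, and each sample was a pool of 30 oocytes, of which 10 measured 50–55 μm across and the other 20 measured 55–60 μm, taken from C57BL/6 (B6) females at 18 dpp. XY females, which carry the Y chromosome of the B6.Y-TIR strain, and their XX littermates were born to B6 mothers and B6.Y-TIR fathers. XO females were born to B6 mothers and fathers that carried Patchy Fur (Paf), an X-linked mutation that came from C3H/HeSnJ and had been backcrossed to B6, so that their single X was maternal. The cross and the XO genotype therefore cannot be told apart. Nothing in the labels says whether pools of a genotype shared females, so p-values measure the spread between these pools.

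Translation of most mRNAs begins when eIF4E binds the cap, the scaffold eIF4G joins it to the helicase eIF4A, and the small ribosomal subunit, loaded with eIF3, eIF1, eIF1A, eIF5 and the initiator tRNA on eIF2, scans to the start codon. After start codon recognition eIF5B joins the large subunit, and eIF2B recharges eIF2 with GTP. 4E-binding proteins hold eIF4E away from eIF4G, and phosphorylation of the eIF2 alpha subunit blocks eIF2B. Growing oocytes transcribe and store mRNA for use after growth, when transcription stops, and they keep many stored mRNAs untranslated, which makes this step a main point of control in the female germline.

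The 100 bases before the transcription start are shown for the member of highest level, Eif4e, and for 8 of the 9 members called in the comparisons of genotypes, all but Eif3i. They are RefSeq sequences of assembly GRCm38.p6 on the strand of the gene, and capitals mark CACGTG (the E-box of factors such as MYC and USF), GGGCGG (the GC box of SP1), CCAAT and CCGGAA (the core of ETS factors), each searched on both strands.
Eif4e (chr3:138527168-138527267, plus strand): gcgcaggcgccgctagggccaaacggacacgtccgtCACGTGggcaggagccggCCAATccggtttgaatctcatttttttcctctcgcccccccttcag
Eif2s2 (chr2:154892907-154893006, minus strand): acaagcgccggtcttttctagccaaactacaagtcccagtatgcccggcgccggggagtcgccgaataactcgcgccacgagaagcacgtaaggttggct
Eif2b1 (chr5:124579132-124579231, minus strand): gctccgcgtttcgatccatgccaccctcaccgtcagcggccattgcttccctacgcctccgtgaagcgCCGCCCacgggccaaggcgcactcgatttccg
Eif3b (chr5:140419205-140419304, plus strand): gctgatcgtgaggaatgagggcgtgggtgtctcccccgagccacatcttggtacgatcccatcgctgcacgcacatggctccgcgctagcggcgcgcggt
Eif3d (chr15:77970825-77970924, minus strand): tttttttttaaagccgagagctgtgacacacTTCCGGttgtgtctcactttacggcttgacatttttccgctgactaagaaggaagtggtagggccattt
Eif3k (chr7:28981889-28981988, minus strand): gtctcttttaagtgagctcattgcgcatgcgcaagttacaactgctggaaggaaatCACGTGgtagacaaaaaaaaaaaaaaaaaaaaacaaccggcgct
Eif4a1 (chr11:69672424-69672523, minus strand): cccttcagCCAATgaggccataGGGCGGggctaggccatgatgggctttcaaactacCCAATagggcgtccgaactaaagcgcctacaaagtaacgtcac
Eif4h (chr5:134639410-134639509, minus strand): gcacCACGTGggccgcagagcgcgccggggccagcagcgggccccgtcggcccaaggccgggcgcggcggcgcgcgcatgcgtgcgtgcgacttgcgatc
Eif5a (chr11:69921387-69921486, minus strand): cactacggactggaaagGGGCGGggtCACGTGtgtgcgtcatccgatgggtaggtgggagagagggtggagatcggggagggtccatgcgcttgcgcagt
Eif4e has 2 starts in this table and the downstream one is shown, whereas Eif5a has 6 and the second is shown. Both stretches shown hold CACGTG. The other Eif4e start holds none of these motifs in its promoter of 300 bases. No other Eif5a start holds CACGTG in the 100 bases before it. Eif2s2 and Eif3b hold none of these motifs in the stretch shown. Promoters of 300 bases (250 before and 50 after the start) were found for 33 members, with 42 starts. CACGTG stood in 12 of these 42 promoters (28.6%), compared with 9.20% of the 9561 promoters of all genes tested for expression and 7.15% of 32851 promoters in the table. The members with it were Eif1b, Eif3a, Eif3f, Eif3k, Eif4a1, Eif4e, Eif4g1, Eif4h, Eif5a and Eif5a2. CCGGAA was found in 47.6% of the promoters of members and 26.3% of those of tested genes, GGGCGG in 69.0 and 56.4%, CCAAT in 28.6 and 38.7%, and TATAAA in 7.14 and 8.29%. Of these motifs only CACGTG reads the same on both strands. Neighbouring starts of 1 gene share bases, so promoters are not independent. These shares are a description, and a match of letters is not a binding site.

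Libraries were made by Smart-seq3, in which a unique molecular identifier (UMI) at the 5′ end of each cDNA counts a molecule once, whatever its length. The unit used here is normalized CPM, UMIs scaled per sample by the authors. The scale is the total of UMIs on genes times a trimmed-mean (TMM) factor of the ERCC spike-in RNAs. It does not equalise the amount of spike-in between samples, which was 0.204% of UMIs in XX3 and 0.862% in XY1. Since 1 molecule gives 1 UMI at its 5′ end, levels are not divided by transcript length, and genes are compared in captured cDNA molecules. The cDNA was primed with a polyT primer, and whether capture differed between genes was not tested. The samples had between 2130145 and 3157338 UMIs on genes, and 1 UMI was worth between 0.302 and 0.565 normalized CPM. All 15 oocyte markers, such as Zp2 and Gdf9, were found. Of 14 granulosa cell markers, Foxl2, Amh, Hsd17b1 and Krt18 had no row and 10 were found, with a summed level of 76.7 to 127 in XX, 74.6 to 215 in XO and 87.9 to 145 in XY samples, but Inha had 1 UMI and Amhr2 3 UMIs over all samples. The first replicate of XO (XO1) stood apart from XO2 and XO3, with 37.6% of 10993 tested genes more than 1 lower and 17.2% more than 1 higher on the log2 scale, so results are also given without it.

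The 44 genes together gave 110578 UMIs and between 0.433 and 0.590% of all UMIs on genes in each sample. Their mean levels over the 9 samples ranged from 0.439 (Eif4ebp1) to 1930 (Eif4e) normalized CPM, with a median of 30.6. Among tested genes, the median of the 39 members was 40.1 and that of all 10993 genes was 17.5. Levels of the factors by UMIs were thus far from equal, and 11 genes had a mean over 100 while 18 were under 20.

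**Figure D1:**
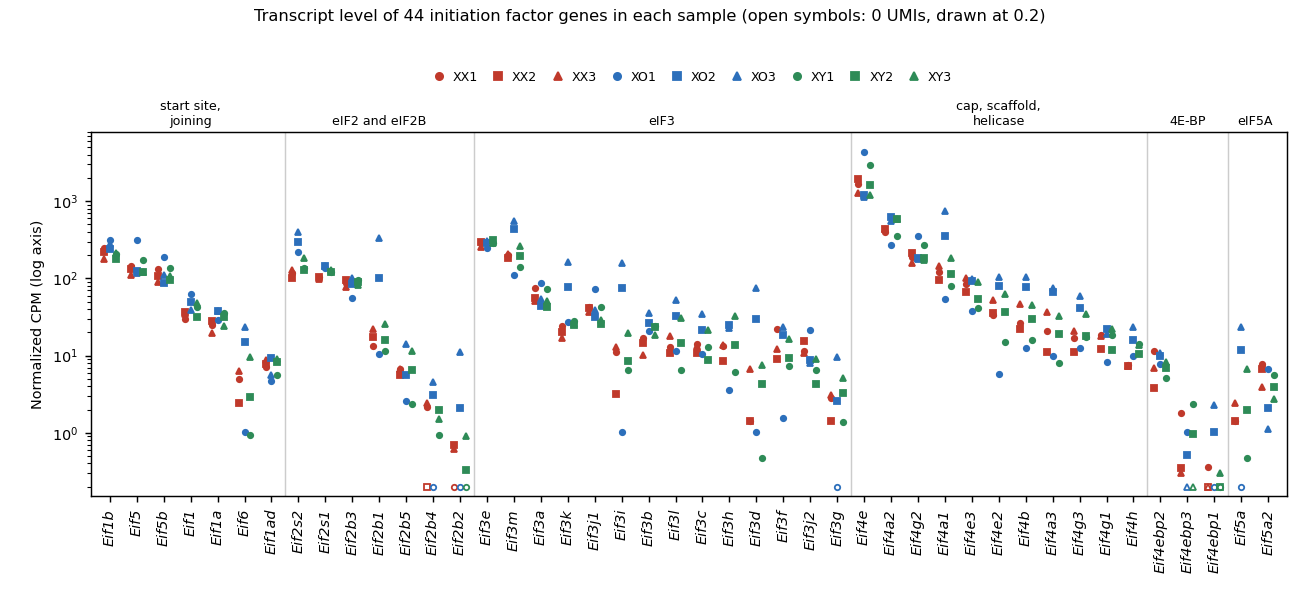
Level of each of the 44 genes in normalized CPM (log axis) in each of 9 samples, grouped by role and ordered by mean level; colours are genotypes and symbols are replicates. Eif4e stands above all other members, Eif3e and Eif2s1 lie within a narrow band, and XO1 (blue circles) falls to the bottom for many low members.

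Eif4e (ENSMUSG00000028156.12, chr3:138526179-138559696 in GRCm38), which encodes the cap-binding subunit, accounted for 38.7% of the summed level of the 44 genes over all samples, with 18.0% in XO3 as the lowest share and 60.9% in XO1 as the highest. It was at 1690.5, 1970 and 1279 normalized CPM in XX1 to XX3, at 4285, 1210 and 1138 in XO1 to XO3, and at 2955, 1641 and 1200 in XY1 to XY3. XO1 and XY1 were the highest of all samples, and the genotypes overlapped, with a log2 fold change of XX over XO of -0.43 ± 0.60 (SE; edgeR, adjusted p = 0.706). Eif4e exceeded the summed level of the 3 scaffold genes Eif4g1, Eif4g2 and Eif4g3 by 4.44 to 11.3 times and that of the 3 genes of 4E-binding proteins by 87.6 to 487 times, depending on the sample. Of the latter, Eif4ebp2 had 178 UMIs over all samples, Eif4ebp3 had 18 and Eif4ebp1 had 8. Eif4ebp2 was at 11.4, 3.85 and 7.01 in XX, 7.77, 9.82 and 10.7 in XO, and 5.11, 6.84 and 8.15 in XY samples, which overlapped. Eif4ebp1 and Eif4ebp3 had the lowest means of the 44 genes, and Eif4ebp2 ranked 34 by mean. The other 2 cap-binding paralogs, Eif4e3 (mean 73.9) and Eif4e2 (47.1), which encodes a repressor that binds caps, were much lower than Eif4e.

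Both ATP-dependent helicases of the eIF4F complex were abundant, with means of 476 (Eif4a2) and 211 (Eif4a1). Eif4a2 exceeded Eif4a1 in 8 of 9 samples, by 1.80 to 5.16 times, whereas in XO3 the ratio was 0.741. Eif4a3, the related helicase of the exon junction complex, had a mean of 31.2. Of the scaffolds, Eif4g2 (mean 212), which lacks the eIF4E-binding region of its relatives, was above Eif4g3 (25.7) and Eif4g1 (16.8). The helicase cofactors Eif4b and Eif4h had means of 42.0 and 12.2.

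Among genes of start site selection and subunit joining, Eif1b was highest, at 245, 220 and 177 normalized CPM in XX, 314, 239 and 279 in XO, and 210, 181 and 213 in XY samples. All XO samples were above all XY samples, and XX overlapped with both. Eif1b exceeded its close paralog Eif1 (mean 41.8), which like it keeps start codon choice accurate, by 4.37 to 8.29 times in each sample. Eif5, the GTPase-activating protein of eIF2, had a mean of 151, Eif5b 118 and Eif1a 29.9. Eif6, which keeps the large subunit from joining, and Eif1ad, a gene with an eIF1A domain, had means of 7.39 and 7.34.

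The 14 genes of eIF3, the largest initiation factor and the platform of the complex on the small subunit, covered an 87.9-fold range of mean levels. Eif3e was highest, at 290, 298 and 256 normalized CPM in XX, 246, 284 and 305 in XO, and 290, 316 and 287 in XY samples. It was the steadiest of the 39 tested members, with a highest sample 1.28 times the lowest, and XX and XO differed by 0.02 ± 0.26 (log2, SE). By their means in XX samples, Eif3m (197) followed, then Eif3a (60.7), Eif3j1 (40.4), Eif3k (20.4), Eif3f (14.6), Eif3l (13.9), Eif3b (13.8), Eif3c (12.8), Eif3j2 (12.5), Eif3h (11.8), Eif3i (9.0), Eif3d (3.18) and Eif3g (2.43), and those from Eif3f to Eif3h overlapped among samples. The order was not the same in XO, where Eif3k (88.8) and Eif3i (77.6) had means above Eif3a (62.4). Levels by UMIs of subunits that are present once per complex were thus unequal. Eif3j1 and Eif3j2 are close copies, and their separate counts depend on how reads were assigned.

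In the eIF2 complex, Eif2s2, the beta subunit, had the highest mean (191), followed by Eif2s1 (123), the alpha subunit that is phosphorylated under stress. In XX samples their means were 117 and 103, and Eif2s2 was below Eif2s1 in XX2. Of the subunits of the exchange factor eIF2B, Eif2b3 had the highest mean (85.6), and Eif2b5 (6.86), which encodes the catalytic subunit, Eif2b4 (1.84) and Eif2b2 (1.77) were low. Eif2b1 lay between them in XX (17.5) and XY (17.6), and its mean in XO (149) came from XO2 and XO3. The gene for the gamma subunit is sex-linked and not among the 44. Eif2s3x was at 133, 140 and 139 in XX, 59.5, 86.3 and 97.7 in XO, and 60.9, 85.6 and 88.1 in XY samples, where Eif2s3y added 93.0, 121 and 115. Eif1ax, the X-linked relative of Eif1a, overlapped between XX and XO. All its XX samples (41.7, 29.8 and 24.7) were above all XY samples (22.8, 11.7 and 18.4), as in 4.15% of genes. Its log2 fold change for XX over XY was 0.86 ± 0.44 (SE; edgeR, adjusted p = 0.947). The summed level of both gamma genes over that of Eif2s1 was 1.34 ± 0.063 among XX samples, 0.570 ± 0.12 among XO samples and 1.52 ± 0.24 among XY samples (mean ± SD, n = 3).

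Genotypes were then compared to ask whether the expression of initiation factors depends on the sex chromosomes of the oocyte. A gene was called at an unadjusted p below 0.05, the threshold of the study, in the quasi-likelihood test of edgeR across all 10993 genes. The study applied this threshold in limma with surrogate variables as covariates, whereas the main fit here had no covariate. Log2 fold changes are of the first genotype over the second, so that negative values are lower in the first. In pooled oocytes, fewer cells with a transcript and less of it per cell cannot be told apart.

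Between XX and XO oocytes, 9 of 39 tested members were lower in XX (23.1%) and 0 were higher. The background was of the same order, since 16.7% of all tested genes were lower in XX and 1.4% were higher. That direction is opposite to the one in the study, which reported many autosomal genes as lower in XO than in XX and XY. The median log2 fold change was -0.53 over the members and -0.46 over all genes, and 22 of 39 members were below the latter. The called members were 2 of 5 tested genes of eIF2 and eIF2B (Eif2s2 and Eif2b1), 4 of 13 of eIF3 (Eif3b, Eif3d, Eif3i and Eif3k), 2 of 11 of cap binding, scaffold and helicase (Eif4a1 and Eif4h) and 1 of 2 of eIF5A (Eif5a), against 0 of 7 of start site selection and joining and 0 of 1 of the 4E-binding proteins. By edgeR 0 members passed an adjusted p of 0.05 (0.0% of all genes), whereas DESeq2 with the same spike-in factors called 11 members lower at an unadjusted p (19.7% of genes), of which Eif2s2, Eif3k and Eif2b1 passed after adjustment (4.03% of genes). All XX samples were below all XO samples in 7 members (Eif1, Eif1a, Eif2s1, Eif2s2, Eif3b, Eif3k and Eif4h) and 13.6% of genes, and above them in 0 members and 2.79% of genes.

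Eif2s2 (ENSMUSG00000074656.12, chr2:154871410-154892935, minus strand) was at 118, 102 and 130 normalized CPM in XX, 221, 299 and 404 in XO, and 138, 127 and 184 in XY samples. All XO samples were above all XX and XY samples, and XX and XY overlapped. Its log2 fold change was -1.40 ± 0.32 (SE; edgeR, adjusted p = 0.203) for XX over XO and -1.04 ± 0.32 (adjusted p = 0.485) for XY over XO. The first call held without each of the 9 samples, and the second was lost without XY2. The level of Eif2s2 relative to Eif2s1 was 1.14 ± 0.17 among XX samples, 2.15 ± 0.58 among XO samples and 1.21 ± 0.20 among XY samples (mean ± SD, n = 3). Eif2s1, described after its values were seen, was at 105, 104 and 99.3 in XX, 136, 147 and 146 in XO, and 123, 119 and 128 in XY samples, so that the 3 genotypes did not overlap. It was not called, with -0.47 ± 0.23 for XX over XO (adjusted p = 0.304), beside a median of -0.46 over all genes.

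Eif3k (chr7:28971372-28981864, minus strand), a small subunit of eIF3, was at 23.9, 20.3 and 17.1 in XX, 27.4, 78.1 and 161 in XO, and 28.4, 24.7 and 25.4 in XY samples. XX and XO did not overlap, but XO1 lay within the range of XY. Its log2 fold change was -2.12 ± 0.54 (adjusted p = 0.203) for XX over XO and -1.76 ± 0.53 (adjusted p = 0.485) for XY over XO, and both calls held without each of the 9 samples. Eif3b (chr5:140419328-140443360, plus strand), a core subunit of eIF3, was at 17.1, 14.4 and 10.1 in XX, 20.7, 26.4 and 36.1 in XO, and 24.2, 23.8 and 18.4 in XY samples. Eif4h (chr5:134619721-134639490, minus strand) was at 7.48, 7.35 and 7.31 in XX, 9.84, 16.0 and 23.7 in XO, and 13.9, 10.4 and 13.6 in XY samples. In both genes all XX samples were below all others, with log2 fold changes for XX over XO of -1.002 ± 0.32 in Eif3b and -1.15 ± 0.36 in Eif4h (adjusted p = 0.203 in both). The call of Eif3b was lost without XX3 and without XO3, and that of Eif4h without XX1.

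In the other 5 called members XO1 was far below XO2 and XO3 and within or below the range of XX. Eif2b1 (chr5:124570213-124579131, minus strand), the alpha subunit of eIF2B, was at 13.2, 17.5 and 21.9 in XX, 10.4, 101 and 335 in XO, and 11.6, 16.0 and 25.4 in XY samples. Eif3i (chr4:129591960-129600648, minus strand), which sits with Eif3b and Eif3g in eIF3, was at 11.04, 3.15 and 12.8 in XX, 1.04, 75.5 and 156 in XO, and 6.51, 8.46 and 19.6 in XY samples. Eif3d (chr15:77958998-77970824, minus strand), a subunit that can bind caps, was at 1.42, 1.40 and 6.70 in XX, 1.04, 29.5 and 75.1 in XO, and 0.465, 4.23 and 7.55 in XY samples. In each of them XO2 and XO3 exceeded all other samples. Eif4a1 (chr11:69666936-69672423, minus strand) was at 121, 96.3 and 144 in XX, 53.3, 352 and 758 in XO, and 79.0, 113 and 182 in XY samples. Eif5a (chr11:69916714-69921958, minus strand), whose product carries hypusine and helps elongation and termination, was at 1.42, 1.40 and 2.44 in XX, 0, 11.9 and 23.1 in XO, and 0.465, 1.95 and 6.64 in XY samples, and its 0 in XO1 allows up to 1.55. For XX over XO, log2 fold changes were -3.08 ± 0.94 in Eif2b1 (adjusted p = 0.203), -3.096 ± 1.16 in Eif3i (0.231), -3.42 ± 1.22 in Eif3d (0.221), -1.69 ± 0.75 in Eif4a1 (0.275) and -2.68 ± 1.16 in Eif5a (0.268). Without XO3 none of these 5 calls for XX over XO was kept, and that of Eif4a1 was kept only without XO1.

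**Figure D2:**
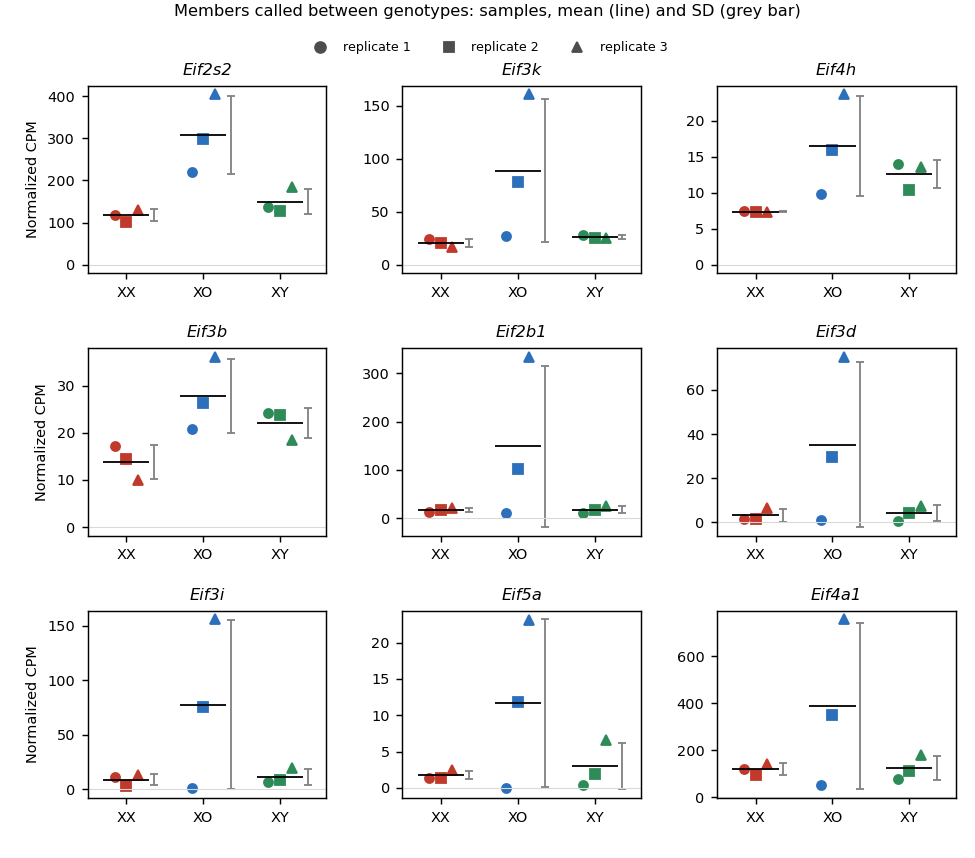
Normalized CPM of the 9 members called between genotypes, by genotype; points are samples (symbol by replicate), black lines are means and grey bars are SD (n = 3). Eif2s2 is higher in all 3 XO samples than in any other sample, whereas Eif2b1, Eif3d, Eif3i, Eif5a and Eif4a1 are high in XO2 and XO3 and low in XO1.

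Without XO1, 17 members were lower in XX than in XO and Eif5a2 was higher, when 31.9% of all tested genes were lower and 3.19% higher. After adjustment, edgeR then called 15 members lower (21.6% of genes) and Eif5a2 higher (1.09%), compared with 0 members when XO1 was kept. Only XO2 and XO3 stood for XO in this fit. Eif5a2 had 4 UMIs in XO2 and 2 in XO3, beside 13 in XO1 and 22, 19 and 13 in XX samples. The 17 lower members held all 9 genes above and Eif3c, Eif3l, Eif3m, Eif4a3, Eif4b, Eif4e2, Eif4g3 and Eif6. The log2 values from which the authors had regressed batch effects gave another picture, since limma called 17 members higher in XX and 2 lower, with 36.3 and 7.78% of all genes. That limma fit did not count the batch terms already removed, so its residual degrees of freedom were too high and its p-values may be too small. Eif2s2 and Eif3k were lower there too, whereas Eif4a1 and Eif5a were higher in XX. When TMM factors of the genes replaced those of the spike-ins, the median of all genes moved from -0.46 to -0.11, and 6 members (Eif2s2, Eif2b1, Eif3d, Eif3i, Eif3k and Eif4h) were lower in XX, with a background of 7.86%. In that fit 0 members and 4.38% of genes were higher in XX. The bar plot of calls by processing sets these counts side by side.

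**Figure D3:**
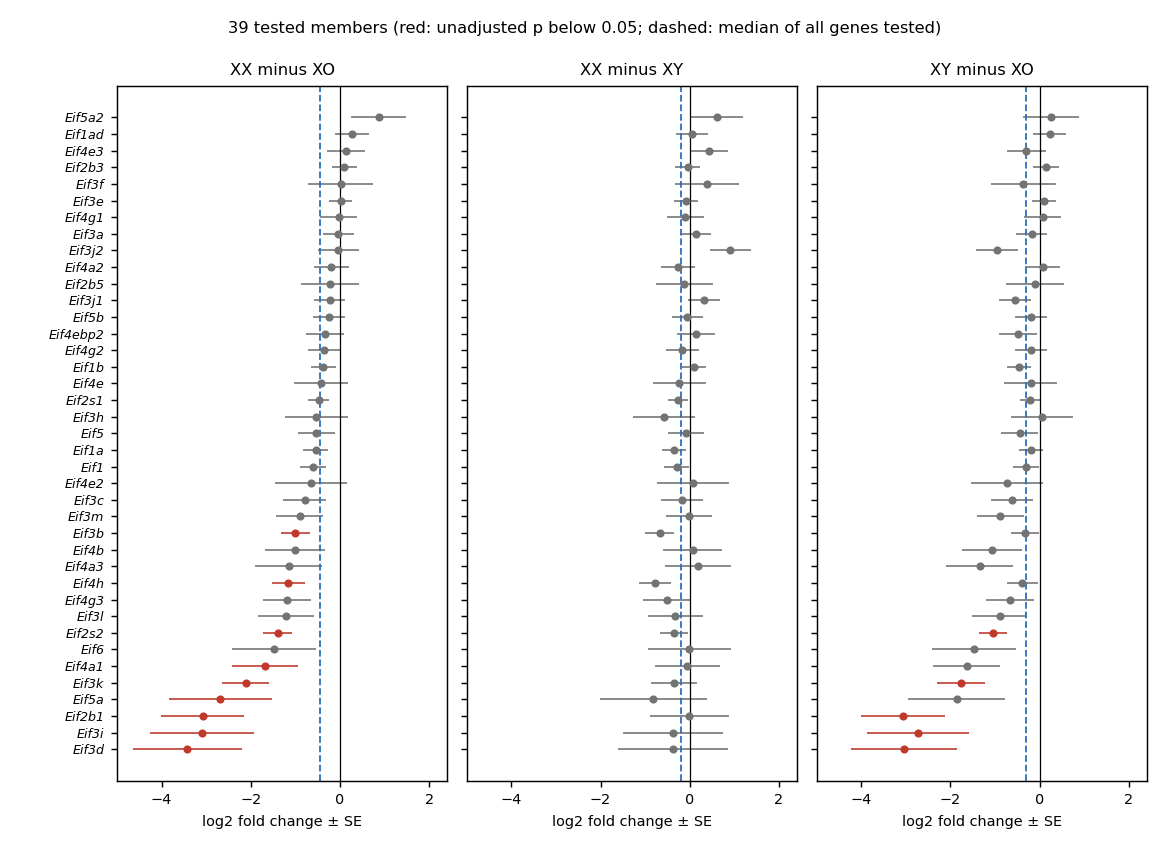
Log2 fold change ± SE of the 39 tested members in the 3 comparisons, in the order of XX over XO; red points have an unadjusted p below 0.05 and the dashed line is the median of all genes tested (-0.46, -0.19 and -0.30). The 9 red members of XX minus XO lie below the line, and no member is red in XX minus XY.

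Between XX and XY oocytes, 0 of 39 members were called by edgeR in either direction, when 1.41% of all genes were higher and 4.39% lower in XX. After adjustment 0 members and 0.0819% of genes passed. At an unadjusted p, DESeq2 with spike-in factors called 0 members, with 1.51% of genes higher and 4.81% lower in XX. With its own size factors it called 1, Eif3j2, as higher (2.62% of genes), and 0 as lower (2.62%). The median log2 fold change was -0.09 over the members and -0.19 over all genes. Eif3j2 had the largest positive difference, at 11.4, 15.4 and 10.7 in XX and 6.51, 4.23 and 9.06 in XY samples, with a log2 fold change of 0.91 ± 0.47 (adjusted p = 0.947). It was the only member with all XX samples above all XY samples, a pattern of 4.15% of genes. All XX samples were below all XY samples in 4 members, Eif2s1, Eif3b, Eif3k and Eif4h, and in 11.7% of genes.

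Between XY and XO oocytes, 5 members were lower in XY (12.8%) and 0 higher, compared with 8.24 and 1.69% of all genes. They were Eif2s2, Eif3k, Eif2b1, Eif3d and Eif3i, which were also lower in XX than in XO. Since both comparisons use the same XO samples, they are not independent. Log2 fold changes for XY over XO were -3.06 ± 0.94 in Eif2b1 (adjusted p = 0.485), -3.03 ± 1.19 in Eif3d (0.485) and -2.73 ± 1.14 in Eif3i (0.494). Without XO3 these 3 calls were lost. That of Eif3d was also lost without XX1, XY1 or XY2, and that of Eif3i without XX1, XX3, XO2, XY1 or XY2. After adjustment 0 members and 0.0364% of genes passed. The median was -0.44 over the members and -0.30 over all genes. All XY samples were below all XO samples in 3 members (Eif1b, Eif2s1 and Eif2s2) and 6.34% of genes, and above them in 0 members and 3.88% of genes. XO and XY samples of the same number deviated together from the means of their genotypes in replicates 1 and 3 (r of 0.82 and 0.77), and less so in replicate 2 (0.27). When the replicate number entered the fit as a block, 8 members (14.1% of genes) were lower in XY and 0 (2.49%) were higher. The 8 were the 5 above and Eif3l, Eif4a3 and Eif5a. Without XO1 there were 14 members lower in XY (24.2% of genes) and 0 higher (5.69%), and 8 were lower after adjustment (9.66%). In the batch-regressed values, 16 members exceeded XO in XY oocytes (38.0% of genes), and Eif2s2, Eif5, Eif3j1 and Eif3j2 were lower (6.02%). For XX against XY these values gave 4 higher members (Eif3j1, Eif3j2, Eif4e3 and Eif5a2) and 2 lower (Eif3b and Eif4h), with 10.6 and 12.6% of genes.

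Under other processing the counts of members changed too, and not always in the direction of the background. With 2 surrogate variables as covariates, the kind of correction the study applied, Eif2s2 was the 1 member lower in XX than in XO (7.24% of genes) and Eif3a, Eif3f and Eif4e3 were higher (7.06%). In that fit XX exceeded XY in 7 members (9.19%) and was lower in 1 (11.2%), and XY exceeded XO in 1 (9.77%) and was lower in 5, Eif2s2 among them (8.48%). With the 2 components that the batch-regressed matrix lacks as covariates, 2 members were higher in XX than in XO (6.95%) and 0 lower (2.99%), 3 higher in XX than in XY (8.18%) and 1 lower (13.6%), and 2 higher in XY than in XO (9.18%) and 0 lower (1.35%). When library sizes came from spike-in totals, Eif5a2 was higher in XX than in XO (2.29%) and 0 members were lower (0.532%), 0 were called between XX and XY (2.0 and 0.291%), and XY exceeded XO in 0 members (0.42%) and was lower in Eif2b1 (0.814%). Replicates 2 and 3 alone gave 16 members lower in XX than in XO (29.6%) and 1 higher (3.94%), 0 lower in XX than in XY (7.03%) and 1 higher (2.92%), and for XY against XO 12 lower (20.2%) and 0 higher (3.45%). TMM factors of the genes gave 0 calls between XX and XY (2.67 and 2.47%) and 5 members lower and 0 higher in XY than in XO (5.69 and 3.33%). Without a filter on low counts, 15 of 44 members were lower in XX than in XO (13.5%) and 12 were lower in XY (8.7%). The block gave 10 members lower and 0 higher in XX than in XO (21.1 and 1.91%) and 0 calls between XX and XY (2.35 and 6.81%), and without XO1 the comparison of XX with XY gave 1 higher (2.26%) and 2 lower members (8.78%).

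**Figure D4:**
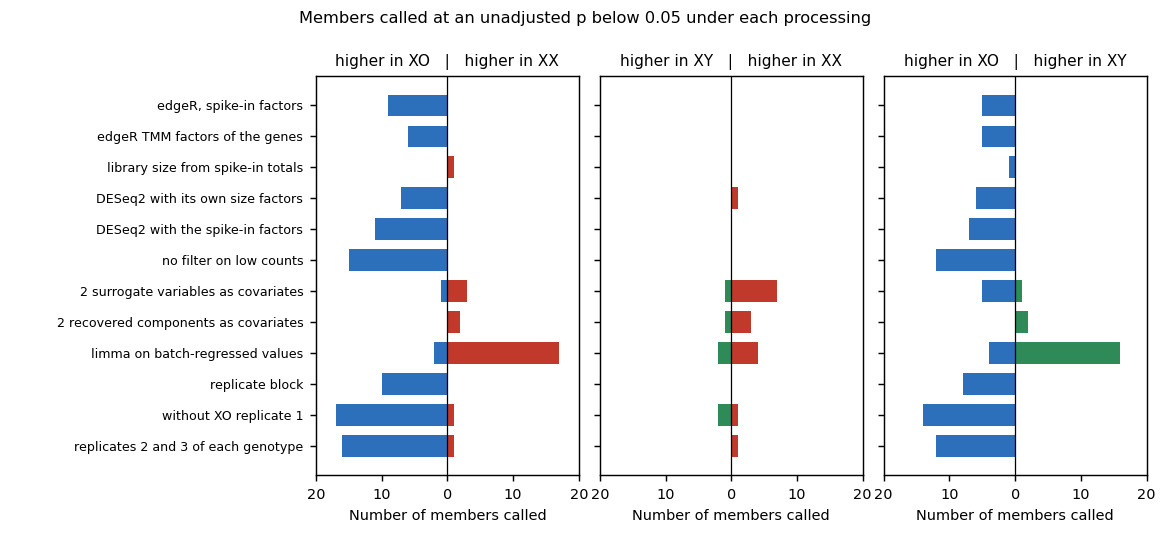
Number of members called at an unadjusted p below 0.05 under each processing, in the 3 comparisons; bars to the left are members higher in the second genotype and bars to the right those higher in the first. Counts of members higher in XO rise to 17 and 14 without XO1 and turn into 17 and 16 members higher in XX and XY in the batch-regressed values.

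The spread of members within a genotype was described after the values were seen and on a scale of log2(normalized CPM + 0.5). In XO, 20 of 39 tested members were more than 1 lower in XO1 than the mean of XO2 and XO3 on the log2 scale and 5 were more than 1 higher, compared with 37.6 and 17.2% of all genes. Eif4e was 3.65-fold higher in XO1 than in XO2 and XO3, Eif5a2 4.21-fold, Eif5 2.59-fold, Eif3j2 2.61-fold and Eif3j1 2.04-fold. At the other end, the mean of XO2 and XO3 was 21.1 times XO1 in Eif2b1, 16.1 times in Eif4e2 and 10.4 times in Eif4a1. Eif3d, Eif3i and Eif6 had 2 UMIs each in XO1, and Eif2b2, Eif2b4, Eif3g, Eif4ebp1 and Eif5a had 0. XY1 differed from XY2 and XY3 in the same direction as XO1 from its group in 32 of 39 members (82.1%), the same share as over all genes (82.1%). In XY1 10 members were more than 1 lower and 1, Eif4e, more than 1 higher, with 17.4 and 5.39% of all genes. Across the 39 members the differences of XO1 and XY1 correlated with a Pearson r of 0.82 and a Spearman rho of 0.85, close to 0.83 and 0.82 across all genes. This correlation is across genes, which share their libraries and are not replicates. In XX the first replicate was within 1 of the others in 36 of 39 members.

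**Figure D5:**
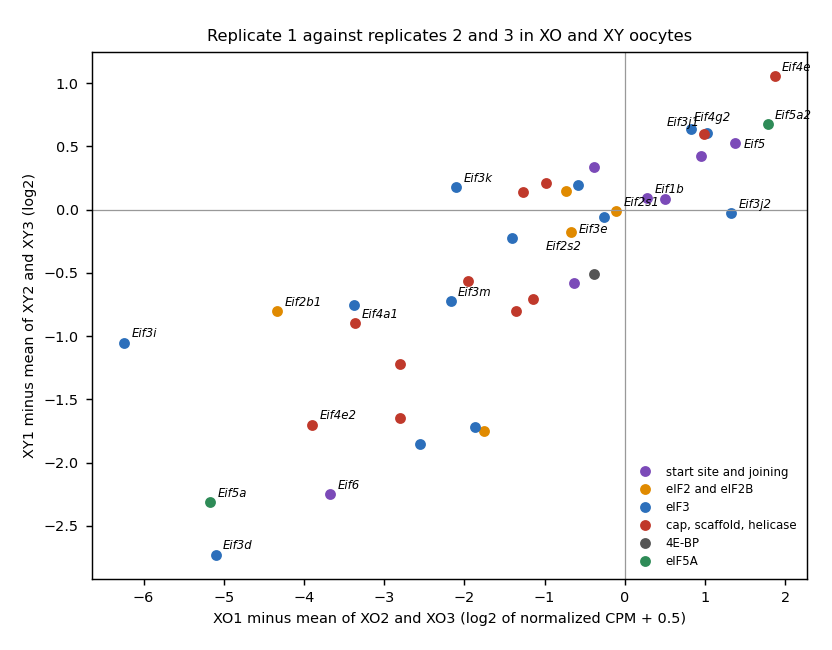
Log2 difference of XO1 from the mean of XO2 and XO3 (x axis) and of XY1 from the mean of XY2 and XY3 (y axis) for the 39 tested members, coloured by role. Eif4e is at the upper right with both first replicates higher, and Eif3d, Eif5a and Eif6 are at the lower left with both lower.

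The members low in the first replicates tended to have short transcripts of high GC content. Across the 39 members the difference of XO1 had a Spearman rho of 0.50 with the length of the longest coding transcript and of -0.58 with its GC content, and that of XY1 of 0.54 and -0.47. Over the 8801 tested genes with a value, 80.1% of all, the rho for XO1 was 0.11 with length and -0.44 with GC content. Eif4e (4991 bases, 40.5% GC) and Eif5 (4050 bases, 41.7%) were high in XO1, whereas Eif3i (1123 bases, 52.9%), Eif5a (1437 bases, 55.0%) and Eif6 (1500 bases, 57.9%) were low. Eif3e, which hardly varied, had a short transcript of low GC content (1506 bases, 40.3%). The part of length, GC content or RNA quality in these differences was not tested. The granulosa marker sum was also lower in XO1 (74.6) than in XO2 (172) and XO3 (215), which came mainly from Esr2 (18.6, 114 and 147) and Cyp19a1 (3.62, 19.65 and 27.7), whereas Nr5a2 was highest in XO1 (42.5, 25.3 and 23.1) and Kitl did not follow (8.28, 5.69 and 9.60). The endothelium sum (16.6, 110 and 132) was nearly all Pecam1, and the oocyte marker sum was lower in XO1 too (19352, 35660 and 42200). The part of these cell types was not tested.

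Other genes of the translation machinery were compared with the members. Of the 58 tested ribosomal protein genes of the cytosol, 25 were lower in XX than in XO (43.1%, against 16.7% of all genes). Their median was -1.52, against -0.46 over all genes. In XY 17 were lower than in XO (29.3%, against 8.24%). Between XX and XY 0 were called, when 4.39% of all genes were lower and 1.41% higher in XX. Of the 58, 43 (74.1%) were more than 1 lower in XO1 than in XO2 and XO3 on the log2 scale, against 37.6% of all genes. Of 38 tested genes of elongation, termination, the integrated stress response and partners of initiation factors, 5 were lower and 1 higher in XX than in XO (16.7 and 1.4% of all genes), 1 lower and 2 higher in XX than in XY (4.39 and 1.41%), and 3 lower in XY than in XO (8.24%). Those higher in XX were Mcts1 over XO and Ddx3x and Gspt2 over XY, and all 3 are X-linked, unlike the members. Atf4, the transcription factor whose translation rises when eIF2 is phosphorylated, was at 17.5, 12.95 and 15.5 in XX, 40.4, 39.8 and 48.0 in XO, and 21.4, 13.3 and 20.8 in XY samples. XO did not overlap with the other genotypes, and its log2 fold change was -1.48 ± 0.29 for XX over XO (adjusted p = 0.203). Eif2ak4, an eIF2 kinase that senses amino acid shortage, had log2 fold changes of -0.96 ± 0.33 for XX over XO and -0.93 ± 0.33 for XY over XO (adjusted p = 0.214 and 0.485). These were 2 of 6 tested genes of the integrated stress response. Of the others, Eif2ak3 was called only for XY over XO (-1.40 ± 0.50; edgeR, adjusted p = 0.485). Eif2ak1, Impact and Ppp1r15b were not called, with -0.39, -0.28 and -0.12 for XX over XO. Eif4e1b, an oocyte relative of Eif4e outside the 44, was at 38.5, 28.0 and 62.8 in XX, 21.7, 129 and 204 in XO, and 26.0, 28.6 and 70.0 in XY samples, with XO1 lowest where Eif4e was highest.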

How the data were processed

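Pools of 30 oocytes, 3 for each genotype, were analysed as grouped by the labels. The authors aligned stranded Smart-seq3 reads with Hisat2 to GRCm38 with Gencode annotation and deposited UMI counts of 5′ exons per gene. A deposited signal matrix holds the counts scaled by 1 constant per sample (normalized CPM). The constant came from the gene total and a TMM factor of the ERCC spike-ins, not from spike-in totals. Another matrix holds deposited log2 values with batch effects regressed out by the authors. The XO column without a number was taken as XO1. Depths are 2130145 to 3157338 UMIs per sample, and a count of 0 allows up to 3 UMIs (counting error only).

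Counts were tested with the quasi-likelihood F test of edgeR 4.0.16 after filterByExpr (spike-in TMM factors, all 9 samples, a mean per genotype, two-sided) with Benjamini-Hochberg adjustment over 10993 genes, and the script was tested on simulated data. DESeq2 1.42.0, sva 3.50.0, limma 3.58.1, other scalings, a lower filter, a replicate block and leaving out samples were alternatives. Samples of XO and XY with the same number correlated in their deviations from genotype means (r of 0.82, 0.27 and 0.77), although XO2 correlated more with XY3 (0.71). The labels do not explain this, and these values cannot show that the numbers pair samples. The main fit was therefore unpaired, and the number entered only the alternative with a replicate block. For replicates 1 to 3, r was 0.45, -0.43 and 0.66 for XX with XO, and 0.42, -0.06 and 0.71 for XX with XY. There replicate 2 did not follow. Per-sample values are given for the highest member of each role group and for called members. The members and gene lists were chosen with earlier results of these data known, and the runs on replicates 2 and 3 alone were added after the data were seen. The 44 genes were all found in Gencode vM21, 37 with the same coordinates.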

Additional observations from a re-analysis of the deposited data

How the results depend on the processing

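The numbers of members lower in XX than in XO (9) and in XY than in XO (5) depended on the processing. With library sizes set by spike-in totals they were 0 and 1 (0.532 and 0.814% of genes), with 1 member higher in XX than in XO (2.29%). The medians of members then became 0.31 for XX over XO and 0.59 for XX over XY, beside 0.39 and 0.48 over all genes. Without a filter on low counts the numbers of members were 15 and 12 (13.5 and 8.70% of genes). With 2 surrogate variables, 1 member was lower and 3 higher in XX than in XO (7.24 and 7.06% of genes). For XX against XY 1 was lower and 7 higher (11.2 and 9.19%), and 1 was higher in XY than in XO (9.77%). With the 2 components that the batch-regressed matrix lacks as covariates, 0 members were lower and 2 higher in XX than in XO (2.99 and 6.95%). For XX against XY 1 was lower and 3 higher (13.6 and 8.18%), and for XY against XO 0 lower and 2 higher (1.35 and 9.18%). Medians of members were 0.21 for XX over XO, beside 0.20 over all genes, and 0.20 for XY over XO. In the batch-regressed values 2 members were lower and 17 higher in XX than in XO (7.78 and 36.3% of genes). For XX against XY 2 were lower and 4 higher (12.6 and 10.6%), and 16 were higher in XY than in XO (38.0%). Medians of members were 0.33 for XX over XO, beside 0.28 over all genes, and 0.29 for XY over XO. With DESeq2 and its own size factors 1 member was higher in XX than in XY (2.62% of genes). Replicates 2 and 3 alone were chosen after the first replicates were seen to differ. On them 16 members were lower and 1 higher in XX than in XO (29.6 and 3.94% of genes). In the other comparisons 1 was higher in XX than in XY (2.92%), and 12 were lower in XY than in XO (20.2%). With the replicate block 8 were lower in XY than in XO (14.1% of genes) and 10 were lower in XX than in XO (21.1%). The counts between XX and XY stayed at 0 (2.35 and 6.81%).

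When single samples were left out, 3 to 17 members were lower and 0 to 1 higher in XX than in XO, 0 to 2 lower and 0 to 1 higher in XX than in XY, and 2 to 14 lower and 0 to 0 higher in XY than in XO. For XX lower than XO there were 3 members without XX1 (5.98% of genes), 5 without XX2 (7.82%), 5 without XX3 (9.79%), 4 without XO3 (7.95%) and 17 without XO1 (31.9%). For XY lower than XO there were 3 without XX1 (4.43%), 3 without XO3 (2.35%), 3 without XY1 (4.58%), 2 without XY2 (1.65%) and 14 without XO1 (24.2%). Medians were -0.60 to -0.42 for XX over XO, -0.24 to 0.25 for XX over XY and -0.58 to -0.26 for XY over XO.

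Directions reversed with the 2 components as covariates for XX over XO in Eif3k (0.37), Eif2b1 (0.66), Eif4h (0.23), Eif3b (0.040), Eif3i (0.16), Eif5a (0.24) and Eif4a1 (0.78), and for XY over XO in Eif3k (0.30), Eif2b1 (0.20) and Eif3i (0.25). They reversed in the batch-regressed values for XX over XO in Eif3i (0.62), Eif5a (0.86) and Eif4a1 (0.49) and for XY over XO in Eif3i (0.92), and with surrogate variables in Eif5a (0.044) and Eif4a1 (0.21). Eif2s2 kept its direction under every alternative run, and its call for XX over XO was lost only with spike-in totals and with the 2 components. The cause of these changes was not tested. With 3 pools per genotype and under 50 UMIs per sample in members such as Eif4h, small differences are not detectable at this depth.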
